A study of Mus musculus with 24 samples.

Results

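The comparison described here sets 3 libraries labelled SEG at day 3 against 3 libraries labelled Erg at day 3, which are 6 of the 24 RNA sequencing libraries in the series. The whole series holds mouse heart fibroblasts in 8 groups of 3 libraries, namely SEG, Sox17, Erg and control, each taken at day 3 and again at day 7, and all grown in EGM2, a medium made for endothelial cells. The labels call the Erg, Sox17 and SEG cells iEC and the control cells fibroblasts, and the series' title speaks of aiECs. They do not spell out SEG, how the factors were delivered, or the age or strain of the mice. Nor do they say whether replicates came from separate animals or cultures. A p-value here therefore covers only the spread of libraries around their group means, estimated over all 8 groups. That spread may be technical. The comparison asks how the expression of heart fibroblasts given the SEG factors differed from that of fibroblasts given Erg alone, 3 days into the change towards an endothelial state.

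Erg is an ETS-family transcription factor that keeps mature endothelium in its state, where it binds the regulatory elements of junction, adhesion and Notch ligand genes. Sox17 belongs to the SOXF family with Sox7 and Sox18, and in the vascular wall it is best known from arteries, where it acts with Notch signalling. Endothelial cells line blood vessels, hold together through VE-cadherin (Cdh5) and PECAM-1 (Pecam1), and are guided by VEGF receptors, Tie receptors and Notch ligands, while fibroblasts lay down collagens and proteoglycans.

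The factors themselves came first. Sox17 (Ensembl mouse annotation on GRCm38/mm10: chromosome 1, 4490931 to 4497354, protein coding) was at 1016, 955 and 1054 CPM (counts relative to the TMM-scaled library size) in the 3 SEG libraries. In the 3 Erg libraries it was at 0.508, 0.195 and 0.0577 CPM. Every SEG library was thus above every Erg library, and the Sox17-only cells stood at 1606 ± 53.0 CPM (SD, n = 3). Erg (chromosome 16, 95359169 to 95586593, protein coding) was present in both groups but not at the same level: 1281, 1269 and 1254 CPM in SEG against 7039, 7088 and 7133 CPM in Erg, a log2 change of -2.48 (SE 0.20, adjusted p = 2.18e-09). In the control it was at 0.0330 ± 0.0572 CPM. SEG cells therefore differed from Erg cells both in holding Sox17 mRNA and in holding less Erg mRNA, and the labels allow a further factor. Which of these goes with any gene below cannot be told apart in this comparison, and counts per gene do not separate a delivered copy of a factor from the cell's own.

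**Figure D1:**
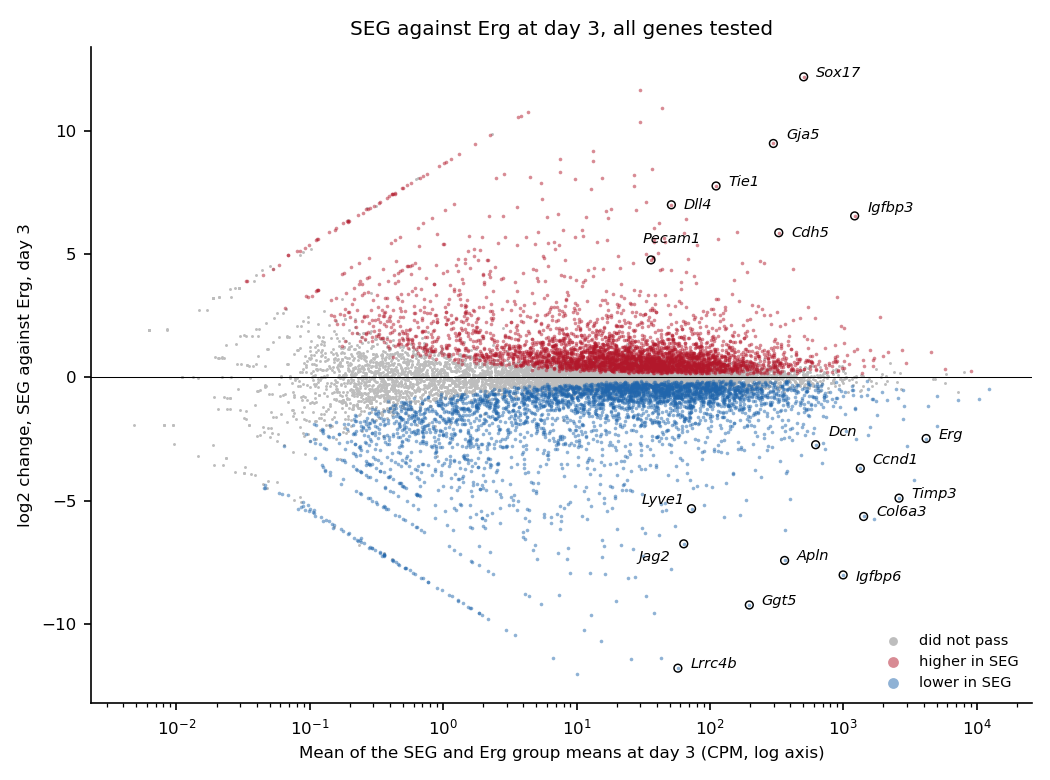
Log2 change in SEG against Erg at day 3 (vertical axis) for each of the 14804 genes tested, against the mean of the SEG and Erg group means in CPM (horizontal log axis). Red points were higher and blue points lower at an adjusted p under 0.05 by edgeR's quasi-likelihood test, grey points did not pass, and circles mark named genes, with Sox17 at 12.19 and Erg at -2.48.

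At day 3, 7551 of 14804 genes tested (51.0%) differed between SEG and Erg at an adjusted p under 0.05 by edgeR's quasi-likelihood test. Of all genes tested, 3809 (25.7%) were higher and 3742 (25.3%) lower in SEG, with a median log2 change of 0.02. Every count of group members below is to be read against these shares. The shares depend on the libraries fitted. With only the libraries compared, 4985 genes were higher and 4896 lower of 13551 tested. Without both outlying day 7 libraries, of SEG and of Sox17, the counts were 5070 and 5018 of 15003. The changes beyond 2-fold numbered 1521 higher and 1846 lower, those beyond 16-fold 206 and 322, and those beyond 64-fold 80 and 126. In 5498 genes (37.1%) all 3 SEG libraries stood above all 3 Erg libraries, and in 5201 genes (35.1%) all stood below. Of the 3809 genes higher in SEG, SEG had the highest mean of the 4 conditions at day 3 in 1838 (48.3%) and Sox17 had it in 1390 (36.5%). Of the 3742 lower genes, Erg had the highest mean in 2820 (75.4%), and of the higher genes it had the lowest mean in 2838 (74.5%). These genes were picked by SEG against Erg, so Erg could not be highest among the higher genes or lowest among the lower ones. The same choice by itself raises the shares with SEG or Erg at an extreme, so they are a description only.

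Total counts ran from 19152711 to 37355910 in the Erg libraries and from 19467852 to 26827713 in the SEG libraries. Ribosomal protein genes took 4.09% to 4.48% of counts in SEG and 3.75% to 3.93% in Erg, and mitochondrial genes 1.51% to 1.62% and 1.65% to 2.01%, so that neither measure overlapped between the groups; their part in the results was not tested. The endothelial label was checked against 6 defining genes. Cdh5, Pecam1, Kdr, Tie1 and Emcn were present in every SEG library, while Esam was higher in Erg. The fibroblast genes Col1a1 and Col1a2 stood between 5556 and 8889 CPM across the 6 libraries, so both groups still held much mRNA of these genes at day 3. Of the other fibroblast markers checked, Dcn, Col3a1 and Pdgfra were lower in SEG than in Erg, and Thy1 did not pass. Bulk libraries do not show whether the same cells held endothelial and fibroblast mRNA.

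Genes of the endothelial surface and junctions were higher more often than lower in SEG. Of 34 tested members of the endothelial list, 18 were higher, 12 lower and 4 did not pass, with a median log2 change of 1.31 against 0.02 over all genes tested. Cdh5, the VE-cadherin that forms endothelial adherens junctions, was at 646, 615 and 675 CPM in SEG and 9.83, 12.8 and 10.6 CPM in Erg. Its log2 change was 5.86 (SE 0.29, adjusted p = 1.42e-12). The Sox17-only cells held 171 ± 11.2 CPM and the control 0.519 ± 0.261 CPM (SD, n = 3), so the 4 conditions were separate and SEG was the highest. Pecam1, a junctional adhesion receptor, was at 70.2, 63.6 and 75.4 CPM in SEG and 2.65, 2.59 and 2.48 CPM in Erg (log2 change 4.76, SE 0.17, adjusted p = 1.20e-14). In Sox17-only cells it was at 2.08 ± 0.338 CPM, far below SEG.

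Tie1, an orphan receptor of the angiopoietin system, was at 229.8, 205 and 229 CPM in SEG and 1.02, 1.02 and 1.01 CPM in Erg (log2 change 7.76, SE 0.29). The Erg libraries hardly varied, and Sox17-only cells stood at 1.65 ± 0.358 CPM. Tek, the angiopoietin receptor Tie2, differed far less, at 39.7, 36.0 and 40.3 CPM in SEG and 13.8, 14.1 and 13.1 CPM in Erg (log2 change 1.5, adjusted p = 1.71e-07). Emcn, the sialomucin endomucin of the endothelial surface, was at 224, 228 and 224 CPM in SEG and 3.73, 5.42 and 4.79 CPM in Erg. Its log2 change was 5.59 (SE 0.22, adjusted p = 3.50e-14), with 4.51 ± 0.304 CPM in Sox17-only cells. Cd93, a C-type lectin receptor of endothelium, was at 485, 392 and 484 CPM in SEG and 16.1, 16.8 and 18.8 CPM in Erg. Sox17-only and control cells held 1.58 ± 0.0847 and 2.56 ± 0.621 CPM of Cd93, so that every SEG library exceeded every library of the other conditions at that day. Myct1 (log2 change 7.74), Adgrl4 (log2 change 8.19), Icam2 (log2 change 4.93) and the caveolin gene Cav1 (log2 change 2.41) were also higher. Kdr, the main VEGF-A receptor, was at 299, 258 and 307 CPM in SEG and 65.8, 64.6 and 66.1 CPM in Erg (log2 change 2.14, adjusted p = 1.92e-06), and Sox17-only cells were above both at 377 ± 37.0 CPM.

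Not all endothelial genes went up. Flt1, a VEGF receptor that acts largely as a decoy, was at 26.6, 22.9 and 28.1 CPM in SEG and 207, 204 and 199.5 CPM in Erg (log2 change -2.98, SE 0.24, adjusted p = 2.61e-09). The Erg level was the highest of the 4 conditions, with 4.76 ± 0.622 CPM in Sox17-only and 11.5 ± 1.55 CPM in control cells. Flt4, the receptor of VEGF-C, was likewise lower (log2 change -2.39). Plvap, which makes the diaphragms of fenestrae and caveolae, was at 0.869, 0.189 and 0.635 CPM in SEG against 40.3, 41.7 and 36.1 CPM in Erg (log2 change -6.17). Icam1, a leukocyte adhesion receptor, was at 42.1, 51.3 and 46.8 CPM in SEG and 746, 683 and 656 CPM in Erg. Esam, a tight junction adhesion gene, was at 15, 11.8 and 12.6 CPM in SEG and 87.8, 84.7 and 81.7 CPM in Erg and near 0 in control and Sox17-only cells. Eng (log2 change -1.59) and Cd34 (log2 change -1.32) were also lower. Vwf, the gene of von Willebrand factor, was at 1.12, 1.17 and 1.57 CPM in SEG and 2.26, 1.27 and 2.28 CPM in Erg and did not pass (log2 change -0.59, SE 0.32, adjusted p = 0.14).

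**Figure D2:**
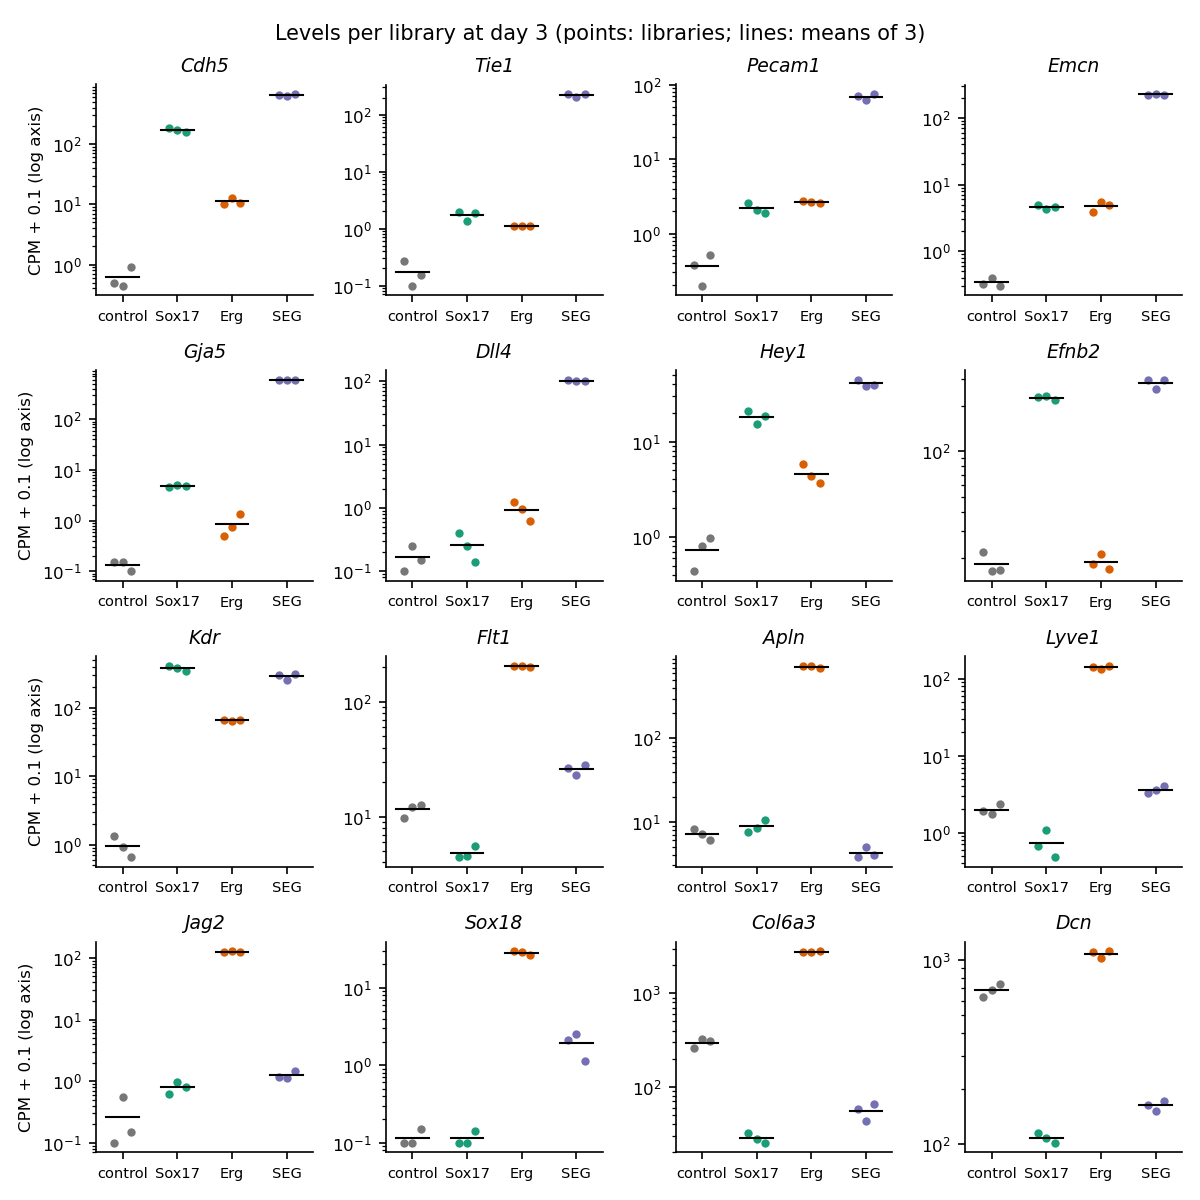
Level of 16 genes in each of the 3 libraries of the 4 conditions at day 3, as CPM plus 0.1 on a log axis that differs between panels; points are libraries and lines are means. Cdh5, Tie1, Pecam1, Emcn, Gja5 and Dll4 stood highest in SEG, while Flt1, Apln, Lyve1, Jag2, Sox18 and Col6a3 stood highest in Erg.

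Arterial and Notch pathway genes had the highest median change of all lists. In Notch signalling a ligand on one cell (Dll or Jag genes) activates a receptor on its neighbour, which drives target repressors such as Hey1. Of 27 tested members of the arterial and Notch list, 18 were higher and 4 lower, with a median log2 change of 1.80. Gja5, the arterial gap junction gene connexin 40, was at 598, 592 and 602 CPM in SEG. In Erg it was at 0.395, 0.635 and 1.24 CPM, a log2 change of 9.48 (SE 0.31, adjusted p = 2.86e-15). Sox17-only cells held 4.74 ± 0.131 CPM, so neither single factor came near the SEG level. Gja4, the gene of connexin 37, was at 80.1, 68.2 and 73.8 CPM in SEG and 1.41, 1.81 and 1.73 CPM in Erg (log2 change 5.47).

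Among Notch ligands the members parted. Dll4, the ligand of arterial and sprouting endothelium, was at 105, 102 and 99.2 CPM in SEG and 1.13, 0.879 and 0.519 CPM in Erg (log2 change 7.00, SE 0.31, adjusted p = 2.40e-13), with 0.162 ± 0.128 CPM in Sox17-only cells. Jag1 was at 485, 490.5 and 475 CPM in SEG and 87.2, 82.1 and 85.7 CPM in Erg (log2 change 2.51). Jag2 went the other way, at 1.07, 1.02 and 1.38 CPM in SEG and 126, 128 and 124 CPM in Erg (log2 change -6.75, SE 0.31, adjusted p = 3.73e-13), and it was below 1 CPM on average in control and Sox17-only cells. Dll1 was lower too (log2 change -3.84). Of the receptors, Notch1 (log2 change 1.23) and Notch4 (log2 change 2.35) were higher, while Notch2 (log2 change 0.02, adjusted p = 0.971) and Notch3 (log2 change -0.06, adjusted p = 0.907) did not pass. Hey1, a Notch target repressor, was at 44.3, 38.6 and 39.4 CPM in SEG and 5.70, 4.20 and 3.55 CPM in Erg (log2 change 3.20, SE 0.17, adjusted p = 4.01e-12), whereas Hes1, another Notch target, was lower (log2 change -0.67, adjusted p = 0.00151). Efnb2, the ephrin that marks arteries, was at 296, 257 and 295 CPM in SEG and 18.0, 21.0 and 16.6 CPM in Erg. Its log2 change was 3.93 (SE 0.25), and the Sox17-only level was 226 ± 7.16 CPM. Sema3g (log2 change 6.44), Cxcr4 (log2 change 5.73), Nrp1 (log2 change 1.89) and the elastic fibre gene Fbln5 (log2 change 2.83) were higher as well.

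The proximal promoters of 3 of these genes are shown because SOX and ETS factors bind short motifs that can be read by eye. The sequences are RefSeq's for the build GRCm38.p6, on the strand of the gene, covering the 250 bases before the annotated start, with capitals for matches on either strand to ACAAT, the SOX core motif, or to AGGAAG or CGGAAG, a pair of ETS motifs that do not overlap ACAAT.
Gja5 chr3:97032152-97032401 (+): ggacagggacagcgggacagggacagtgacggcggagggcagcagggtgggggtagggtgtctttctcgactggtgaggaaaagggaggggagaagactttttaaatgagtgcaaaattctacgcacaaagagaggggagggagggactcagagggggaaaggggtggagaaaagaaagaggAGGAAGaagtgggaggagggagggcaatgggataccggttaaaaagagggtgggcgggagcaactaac
Emcn chr3:137340828-137341077 (+): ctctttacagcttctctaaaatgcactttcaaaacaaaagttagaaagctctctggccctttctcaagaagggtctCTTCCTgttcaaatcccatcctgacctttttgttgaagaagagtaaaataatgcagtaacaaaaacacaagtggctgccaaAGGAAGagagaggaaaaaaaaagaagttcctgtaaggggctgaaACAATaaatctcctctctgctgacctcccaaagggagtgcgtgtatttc
Tek chr4:94739039-94739288 (+): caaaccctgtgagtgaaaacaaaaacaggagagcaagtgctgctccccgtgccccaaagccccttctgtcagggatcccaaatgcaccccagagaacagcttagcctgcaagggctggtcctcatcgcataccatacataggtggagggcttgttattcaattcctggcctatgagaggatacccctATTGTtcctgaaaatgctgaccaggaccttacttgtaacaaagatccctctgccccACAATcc
The search covered 16 endothelial and arterial genes higher in SEG that were named by rule, of which 4 lacked an entry. Of the other 12, Emcn and Tek were the only 2 whose window of 300 bases held ACAAT. Genes named after their values were seen, such as Gja4, Icam2 and Cav1, were not searched. Gja5 was added to those shown after its value was seen. Emcn held ACAAT at position -49 and AGGAAG at -93 and, on the other strand, -174. Tek held ACAAT at -7 and, on the other strand, at -63. Gja5 held AGGAAG at -68. Over all 32851 promoters of the same length in the table, 31.0% held ACAAT, 35.4% AGGAAG and 16.9% CGGAAG, so a match is common and is a description only. Only 75.4% of genes tested had an entry, fewer than the 80% set as the minimum, so no share is given for the called genes.

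Venous and lymphatic genes were mostly lower in SEG. Of 13 tested, 4 were higher and 8 lower, with a median log2 change of -1.93. Lyve1, a hyaluronan receptor of lymphatic endothelium and some macrophages, was at 3.17, 3.47 and 3.92 CPM in SEG and 144, 134 and 148 CPM in Erg (log2 change -5.33, SE 0.29, adjusted p = 4.90e-12). Erg stood alone at this level, since control and Sox17-only cells held 1.89 ± 0.322 and 0.639 ± 0.303 CPM. Nrp2, a co-receptor of VEGF-C and semaphorins, was at 30.4, 27.2 and 31.2 CPM in SEG and 407, 405 and 394 CPM in Erg (log2 change -3.76), and Selp, the P-selectin gene, at 3.02, 3.02 and 3.63 CPM in SEG and 38.6, 39.0 and 46.9 CPM in Erg (log2 change -3.68). Nr2f2, the COUP-TFII factor of venous identity, went up, at 63.8, 53.1 and 55.5 CPM in SEG and 31.5, 31.4 and 31.2 CPM in Erg (log2 change 0.87, adjusted p = 2.34e-06). Vcam1, an adhesion receptor also found on fibroblasts, was higher as well (log2 change 1.12).

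Tip cell genes, which mark the leading cell of a vascular sprout, divided. Of 14 tested, 8 were higher and 4 lower (median log2 change 0.98). Apln, the gene of the secreted peptide apelin, was at 3.68, 4.90 and 3.92 CPM in SEG. In Erg it was at 730.2, 744 and 691 CPM (log2 change -7.43, SE 0.20, adjusted p = 2.28e-16). The SEG level lay below those of Sox17-only and control cells, 8.72 ± 1.55 and 7.03 ± 1.05 CPM. Esm1, a secreted proteoglycan of sprouting endothelium, was at 84.7, 80.3 and 82.6 CPM in SEG and 1.30, 1.27 and 0.750 CPM in Erg (log2 change 6.27, SE 0.24, adjusted p = 3.96e-14), and Pdgfb, the ligand that recruits mural cells, at 40.1, 39.4 and 40.9 CPM in SEG and 1.75, 2.15 and 1.73 CPM in Erg (log2 change 4.42).

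Guidance genes, which code for the ephrin, Slit, Unc5, netrin and semaphorin systems, were higher in 21 and lower in 9 of 35 tested members, with a median log2 change of 0.58. Of the ephrin ligands, Efna4 was at 22.1, 24.6 and 22.8 CPM in SEG and 1.02, 1.27 and 1.10 CPM in Erg (log2 change 4.36) and Efnb1 at 148, 147 and 142 CPM in SEG and 26.3, 29.7 and 25.4 CPM in Erg (log2 change 2.42). Slit2, a secreted ligand of Robo receptors, was higher (log2 change 2.90, SE 0.34), and the endothelial receptor Robo4 only slightly (log2 change 0.57, adjusted p = 0.0337). The Robo4 call was lost when any 1 of the 6 libraries was left out (adjusted p 0.056 to 0.107). The ephrin receptor gene Ephb1 was at 3.44, 4.10 and 3.49 CPM in Erg and held 1 count over the 3 SEG libraries. The Erg level was 293-fold higher, with a 95% counting interval from 47.3 to 10500. Sox17-only cells held 13.7 ± 4.10 CPM of Ephb1, so both single-factor conditions were above SEG. Reln, a secreted glycoprotein found in lymphatic endothelium, had the same order, with 0.0511, 0.113 and 0.112 CPM in SEG, 16.9, 17.6 and 16.2 CPM in Erg and 20.9 ± 3.19 CPM in Sox17-only cells (log2 change SEG against Erg -7.39, SE 0.58).

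Of 23 tested endothelial transcription factor genes, 9 were higher, 5 lower and 9 did not pass, with a median log2 change of -0.04, about that of all genes. Without SEG replicate 2 or without SEG replicate 3, 3 members were lower. The SOXF relatives of Sox17 parted: Sox18 was at 1.99, 2.41 and 1.05 CPM in SEG and 29.4, 29.0 and 26.1 CPM in Erg (log2 change -3.96, SE 0.31, adjusted p = 1.58e-09), while Sox7 was at 6.90, 5.09 and 6.92 CPM in SEG and 3.05, 2.25 and 2.88 CPM in Erg (log2 change 1.20, adjusted p = 1.92e-04). No library of SEG overlapped one of Erg for either gene. Among other ETS genes, Elk3 (log2 change 2.10), Ets1 (log2 change 1.21) and Fli1 (log2 change 0.62, adjusted p = 7.63e-04) were higher, with Fli1 at 12.9, 10.8 and 11.7 CPM in SEG and 7.57, 6.98 and 8.34 CPM in Erg. Lmo2, a haematopoietic and endothelial cofactor, was at 37.6, 34.3 and 39.6 CPM in SEG and 4.29, 5.27 and 4.82 CPM in Erg (log2 change 2.95), and the repressor Bcl6b at 52.9, 50.8 and 47.4 CPM in SEG and 12.9, 9.81 and 9.66 CPM in Erg (log2 change 2.23). Gata2 was lower, at 6.95, 5.77 and 5.05 CPM in SEG and 40.3, 42.6 and 38.7 CPM in Erg (log2 change -2.78, SE 0.11).

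**Figure D3:**
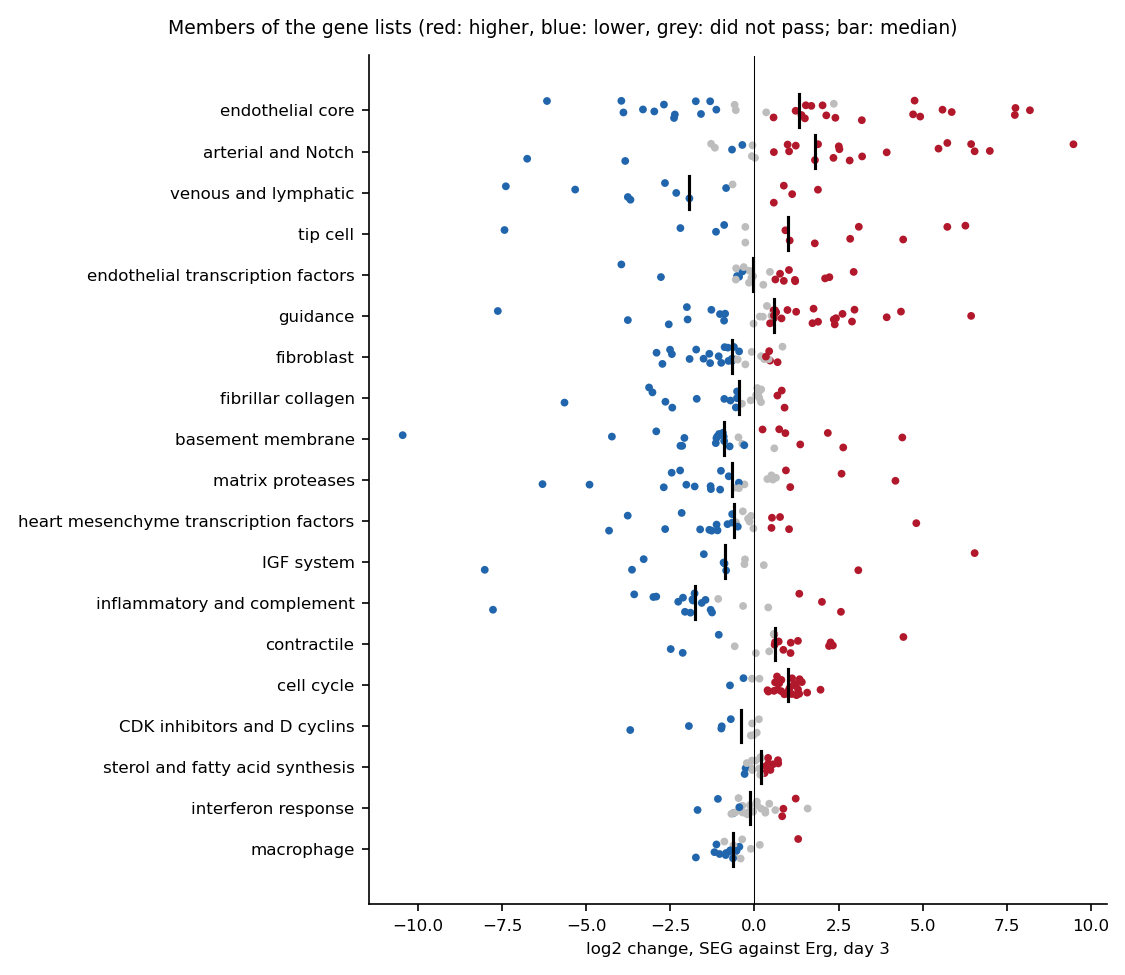
Log2 change in SEG against Erg at day 3 of each tested member of 19 gene lists (one row each), where red points were higher, blue points lower and grey points did not pass, and bars are medians. The arterial and Notch list has the highest median among those drawn (1.80), and the venous and lymphatic list the lowest (-1.93).

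Fibroblast genes were mostly lower in SEG than in Erg, though Col1a1 and Col1a2 did not pass the test. Of 30 tested fibroblast genes, 4 were higher and 18 lower, with a median log2 change of -0.67. Dcn, the proteoglycan decorin, was at 164, 151 and 172 CPM in SEG and 1103, 1022 and 1110 CPM in Erg (log2 change -2.73, SE 0.12, adjusted p = 2.08e-13). The Erg level was above the control at 684 ± 52.9 CPM and the SEG level below it. Gsn, an actin-severing protein, was at 369, 369.5 and 376 CPM in SEG and 2180, 2106 and 2061 CPM in Erg (log2 change -2.51), the proteoglycan Lum at 13.8, 13.5 and 16.5 CPM in SEG and 79.4, 75.5 and 84.8 CPM in Erg (log2 change -2.45), and the surface antigen gene Ly6a at 34.9, 44.0 and 42.5 CPM in SEG and 299, 302 and 312 CPM in Erg (log2 change -2.91). Pdgfra, a defining receptor of heart fibroblasts, was at 113, 104 and 121 CPM in SEG and 185, 198 and 201 CPM in Erg (log2 change -0.79, adjusted p = 0.0109), and both were below the control at 638 ± 11.1 CPM. Thy1 did not pass (log2 change 0.29, SE 0.14, adjusted p = 0.0972), though it did when only the 6 libraries compared were fitted (0.27, adjusted p = 0.000118). In bulk libraries, fewer cells of a type and less RNA per cell cannot be told apart.

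Of 22 tested fibrillar and associated collagen genes and their enzymes, 3 were higher and 11 lower (median log2 change -0.44), the 3 being 0 without Erg replicate 1. Col1a1 was at 8889, 8102 and 8876 CPM in SEG and 7375, 7860 and 7349 CPM in Erg and did not pass (log2 change 0.20, SE 0.11, adjusted p = 0.15), nor did Col1a2 (log2 change 0.12, SE 0.13, adjusted p = 0.467). When only the 6 libraries compared were fitted, both passed, at 0.18 (adjusted p = 0.000977) and 0.10 (adjusted p = 0.00994). Col3a1 was lower, at 1149, 1094 and 1283 CPM in SEG and 2080, 2207 and 2271 CPM in Erg (log2 change -0.90, adjusted p = 2.30e-05). The 3 chains of type VI collagen, a microfibril of the pericellular matrix, showed wider gaps. Col6a3 was at 58.1, 43.5 and 65.3 CPM in SEG and 2777, 2764 and 2810 CPM in Erg (log2 change -5.64, SE 0.28, adjusted p = 1.68e-12). Control cells held 298 ± 31.4 CPM of Col6a3, between the 2 groups. Col6a1 (log2 change -2.65) and Col6a2 (log2 change -3.13) were lower as well, and so was the collagen-modifying enzyme gene P4ha3 (log2 change -3.03).

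Basement membrane genes, coding for the sheet under endothelium, were higher in 7 and lower in 15 of 25 tested members (median log2 change -0.90, the same with the gene at 0 counts set to its bound). Col18a1, the collagen that yields endostatin, was at 829, 732 and 832 CPM in SEG and 39.5, 38.1 and 36.0 CPM in Erg. Its log2 change was 4.40 (SE 0.09, adjusted p = 4.46e-18). Sox17-only and control cells, at 34.7 ± 2.90 and 42.2 ± 1.99 CPM, were near the Erg level, so SEG alone stood apart at day 3. The abundant type IV chains were lower, with Col4a1 at 7028, 7350 and 7421 CPM in SEG and 13110, 13910 and 13640 CPM in Erg (log2 change -0.90) and Col4a2 similar (log2 change -0.94). Col4a3 (log2 change -4.24) and Col4a4 (log2 change -2.92) were lower by more. Lamc3, a laminin chain, held 0 counts over the 3 SEG libraries and 7.23, 6.98 and 6.40 CPM in the Erg libraries. Against a floor of 3 counts over the SEG libraries it was at least 167-fold higher in Erg. Of 24 tested matrix protease and inhibitor genes, 4 were higher and 13 lower (median -0.66). Timp3, a matrix-bound protease inhibitor, was at 174, 165 and 169 CPM in SEG and 5134, 5086 and 4964 CPM in Erg (log2 change -4.90, SE 0.21, adjusted p = 1.63e-13). The Erg libraries were far above the control mean of 316 ± 18.0 CPM, and SEG was below it. Timp4 (log2 change -6.30), Timp2 (log2 change -2.02), Mmp15 (log2 change -2.46) and Mmp2 (log2 change -1.02) were also lower.

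Transcription factors of heart mesenchyme were higher in 5 and lower in 13 of 24 tested members (median log2 change -0.60), with 2 higher without Erg replicate 3 and 3 without SEG replicate 2. The T-box gene Tbx3 was at 2.71, 1.92 and 1.87 CPM in SEG and 41.7, 43.9 and 43.3 CPM in Erg (log2 change -4.32, SE 0.18, adjusted p = 1.59e-13). The control mean was 1.33 ± 0.338 CPM, close to the SEG level and far from that of Erg. Tbx2 (log2 change -2.16), Foxf1 (log2 change -2.65), Tcf21 (log2 change -1.34) and Tbx20 (log2 change -1.12, adjusted p = 0.00284) were lower. Osr1, a zinc finger factor of early mesoderm, was the largest gain of the list, at 129, 137 and 132 CPM in SEG and 4.58, 4.05 and 5.42 CPM in Erg (log2 change 4.81, SE 0.10, adjusted p = 4.80e-18), with 255 ± 2.67 CPM in Sox17-only cells. Gata4 (log2 change -0.10, adjusted p = 0.64) and Hand2 (log2 change -0.19, adjusted p = 0.409) did not pass, though both did when only the 6 libraries compared were fitted (-0.12, adjusted p = 0.0248, and -0.20, adjusted p = 0.0131).

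Genes of the insulin-like growth factor (IGF) binding proteins moved in both directions, some by large amounts. Of 12 tested IGF genes, 2 were higher and 7 lower (median log2 change -0.86). Igfbp3 (chromosome 11, 7206086 to 7213923), which carries IGFs in the circulation, was at 2306, 2505 and 2407 CPM in SEG and 27.7, 23.6 and 25.9 CPM in Erg (log2 change 6.55, SE 0.13, adjusted p = 4.80e-18). Sox17-only cells held 1855 ± 42.6 CPM and control cells 54.0 ± 1.73 CPM. Igfbp6, which prefers IGF-II, was at 5.22, 9.43 and 8.22 CPM in SEG and 1936, 2072 and 1951 CPM in Erg (log2 change -8.02, SE 0.41, adjusted p = 2.35e-12). The Erg level of Igfbp6 again stood alone, above the control at 36.6 ± 5.21 CPM. Igfbp5 was lower (log2 change -3.64), and Pappa, a protease that cleaves binding proteins, was higher (log2 change 3.09, adjusted p = 1.98e-05).

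Inflammatory and complement genes were mostly lower in SEG. Of 21 tested, 3 were higher and 15 lower, with a median log2 change of -1.78. Lcn2, an iron-chelating acute phase protein, was at 0.665, 0.302 and 0.449 CPM in SEG and 104, 97.4 and 101 CPM in Erg (log2 change -7.77, SE 0.39, adjusted p = 2.00e-12). C3, the central complement component, was at 33.5, 37.4 and 43.4 CPM in SEG and 269, 278 and 318 CPM in Erg (log2 change -2.92, SE 0.15). Control cells held 289 ± 38.4 CPM of C3, about the Erg level. C4b (log2 change -3.0), and the chemokines Ccl2 (log2 change -1.84) and Cxcl12 (log2 change -1.45) were lower. The cytokine gene Il6 was at 9.97, 11.5 and 9.20 CPM in SEG and 1.52, 1.71 and 1.88 CPM in Erg (log2 change 2.57, adjusted p = 2.17e-09), and Ptgs2, the prostaglandin synthase COX-2, at 206, 212 and 217 CPM in SEG and 52.6, 58.3 and 47.0 CPM in Erg (log2 change 2.01); both were higher. Of 16 tested coagulation genes, 7 were higher and 2 lower (median 0.39); the 2 became 1 without Erg replicate 1, SEG replicate 1 or SEG replicate 2. Thbd, the anticoagulant receptor thrombomodulin, was at 372, 336 and 378 CPM in SEG and 48.7, 48.7 and 46.6 CPM in Erg (log2 change 2.91, SE 0.21, adjusted p = 6.34e-10).

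Contractile genes of smooth muscle were higher in 12 and lower in 3 of 19 tested members (median log2 change 0.62). Acta2, smooth muscle actin, was at 642, 836 and 632 CPM in SEG and 134, 146 and 139 CPM in Erg (log2 change 2.33, SE 0.19, adjusted p = 2.04e-09). Sox17-only cells were above both at 1419.9 ± 278 CPM, and the Erg level was below the control at 282 ± 20.2 CPM. Cnn1 (log2 change 4.43), Myl9 (log2 change 2.22) and the actin crosslinker Flna (log2 change 1.08) were higher, whereas Myh11, the heavy chain of mature smooth muscle, was at 1.02, 1.02 and 0.635 CPM in SEG and 4.74, 4.78 and 5.39 CPM in Erg (log2 change -2.49). Tagln did not pass, at 385, 522 and 375 CPM in SEG and 412, 433 and 400.4 CPM in Erg (log2 change 0.04, SE 0.21, adjusted p = 0.887), and its groups overlapped. The second SEG library was the highest of its group for Acta2, Tagln, Cnn1 and Myl9. Of 8 tested pericyte genes, 2 were higher and 4 lower (median -1.39, or -1.06 with the gene at 0 counts set to its bound). Cspg4, the NG2 proteoglycan, was at 36.6, 28.4 and 38.7 CPM in SEG and 5.42, 6.25 and 4.82 CPM in Erg (log2 change 2.66), and the potassium channel subunit gene Abcc9 at 0.409, 0.0754 and 0.149 CPM in SEG and 8.19, 8.15 and 8.34 CPM in Erg (log2 change -5.36).

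Cell division genes were higher in SEG at day 3. Of 30 tested cell cycle genes, 26 were higher and 2 lower, with a median log2 change of 0.98. The mitotic activator Cdc20 was at 92.9, 108 and 92.2 CPM in SEG and 24.6, 24.1 and 26.2 CPM in Erg (log2 change 1.97, SE 0.13, adjusted p = 8.06e-11). Ccna2, the cyclin of S and G2 phase, was at 48.3, 48.1 and 46.8 CPM in SEG and 18.9, 19.7 and 18.3 CPM in Erg (log2 change 1.33, adjusted p = 2.20e-09), and Mki67, the Ki-67 antigen of dividing cells, at 50.4, 53.9 and 62.5 CPM in SEG and 18.9, 25.2 and 27.9 CPM in Erg (log2 change 1.21, SE 0.18, adjusted p = 1.48e-05). Control cells held 78.8 ± 2.53 CPM of Mki67 and Sox17-only cells 69.1 ± 10 CPM, so the Erg libraries were the lowest of the 4 conditions. Top2a (log2 change 1.34), Bub1 (log2 change 1.41) and Kif23 (log2 change 1.57) were higher, while the 2 members that were lower serve DNA replication: Pcna at 76.8, 81.0 and 78.3 CPM in SEG and 128, 126 and 137 CPM in Erg (log2 change -0.73) and Mcm3 (log2 change -0.32, adjusted p = 7.38e-04).

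Of 10 tested genes of CDK inhibitors and D cyclins, 0 were higher and 5 lower (median log2 change -0.40). Cdkn1a, the inhibitor p21, was at 312, 320.4 and 316 CPM in SEG and 639, 625 and 610.1 CPM in Erg (log2 change -0.98, SE 0.08, adjusted p = 5.42e-09). The SEG libraries stood at the control level of 314 ± 3.35 CPM. Cdkn1c, the inhibitor p57, was at 13.0, 11.9 and 12.9 CPM in SEG and 47.8, 49.1 and 48.8 CPM in Erg (log2 change -1.95). Ccnd1, the D cyclin that links growth signals to the cell cycle, was at 192, 190.4 and 196 CPM in SEG and 2506, 2499 and 2463 CPM in Erg (log2 change -3.69, SE 0.09, adjusted p = 6.42e-17). Control cells held 748 ± 42.6 CPM, between the 2 groups, and Sox17-only cells 191 ± 5.98 CPM. Ccnd3 was lower too (log2 change -0.97).

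**Figure D4:**
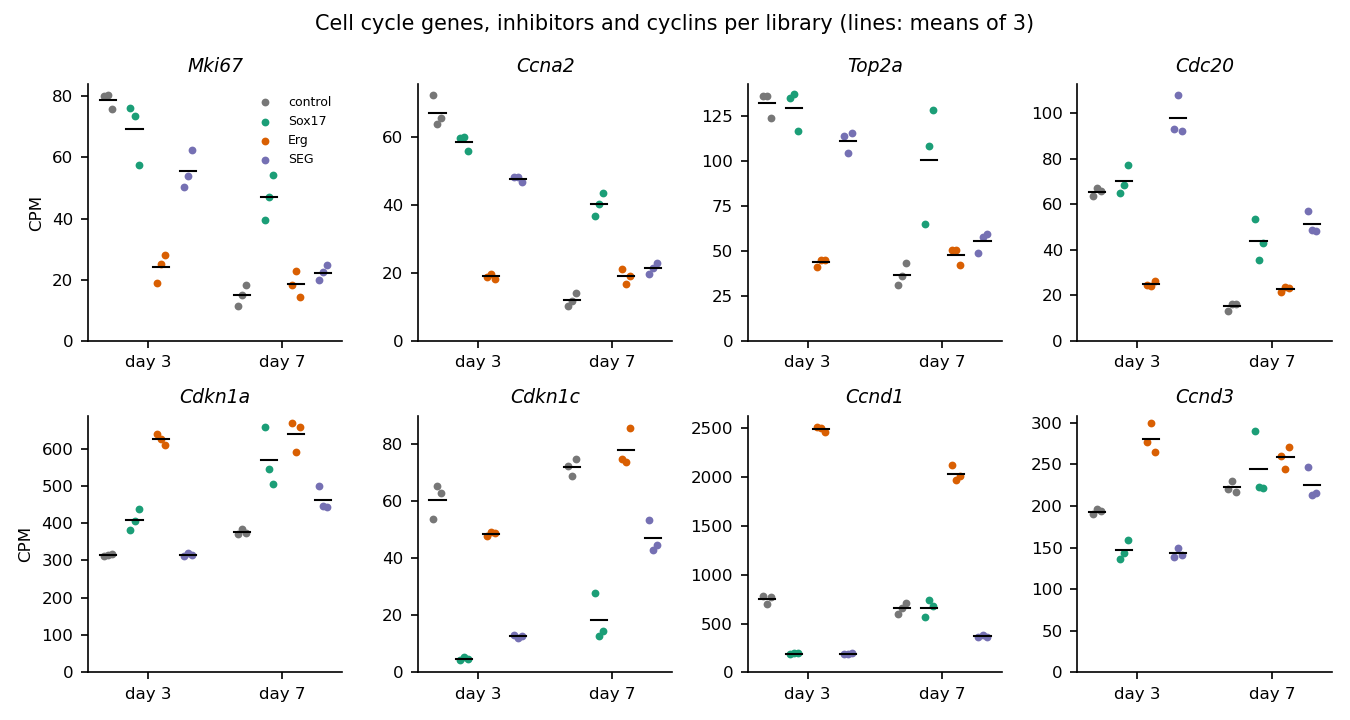
CPM (linear axis from 0) of 4 cell cycle genes and of 4 genes of CDK inhibitors and D cyclins in each library of the 4 conditions at day 3 and day 7; points are libraries and lines are means. At day 3 the cell cycle genes of the Erg libraries lay below those of the other conditions, and at day 7 Mki67 and Ccna2 of SEG had come down to near the Erg level.

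Signalling and metabolic lists gave smaller or mixed changes. Of 18 tested genes of BMP and ALK1 signalling, 5 were higher and 7 lower (median -0.23): the ligand Bmp4 was at 88.9, 91.5 and 86.5 CPM in SEG and 25.9, 32.0 and 28.9 CPM in Erg (log2 change 1.62), the receptor Acvrl1 (ALK1) at 267, 287 and 275 CPM in SEG and 793, 821 and 797 CPM in Erg (log2 change -1.54), and the target Id2 was lower (log2 change -1.75). Of 17 tested Wnt feedback and target genes, 4 were higher and 6 lower (median -0.29), and the general target Axin2 did not pass (log2 change -0.33, SE 0.33, adjusted p = 0.433). The Wnt antagonist Dkk2 was at 28.9, 22.0 and 26.3 CPM in SEG and 1.13, 1.22 and 1.21 CPM in Erg (log2 change 4.43), while the feedback gene Nkd1 was lower (log2 change -3.42). Of 21 tested glycolysis and hypoxia genes, 10 were higher and 6 lower (median 0.38). Pfkfb3, an activator of glycolysis known from sprouting endothelium, was at 62.4, 62.9 and 68.2 CPM in SEG and 9.04, 10.6 and 9.46 CPM in Erg (log2 change 2.73), and the stress gene Ndrg1 at 9.51, 7.58 and 8.60 CPM in SEG and 177, 181 and 178 CPM in Erg (log2 change -4.39). Sterol and fatty acid synthesis genes had 8 higher and 2 lower of 21 (median 0.18). The 2 became 1 without Erg replicate 2, SEG replicate 1 or SEG replicate 2, the 8 became 13 when only the groups compared were fitted, and none of the 21 passed a test against a change of 1.5-fold. Interferon response genes had 3 higher and 4 lower of 25 (median -0.13), fewer than the shares over all genes, and the number higher ran from 0 without SEG replicate 3 to 6 without Erg replicate 2.

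Markers of other cells were checked. Of 19 tested macrophage genes, 1 was higher and 11 lower (median -0.64). Of these counts, the 11 became 7 without Erg replicate 1, and the 1 became 0 without Erg replicate 2 or 3 or SEG replicate 1 or 3. The summed level of the 19 genes ran from 196 to 209.1 CPM in SEG and from 215.8 to 234.2 CPM in Erg. Of the defining genes, Csf1r was at 4.35, 5.13 and 5.35 CPM in SEG and 8.98, 8.45 and 9.40 CPM in Erg (log2 change -0.85), Adgre1 was lower (log2 change -1.19, adjusted p = 0.0104, or 0.0516 without Erg replicate 1), Ptprc did not pass (log2 change -0.10, adjusted p = 0.819), and Fcgr1 was at or under 0.404 CPM in every library of both groups. Their part in the lower inflammatory genes was not tested. The cardiomyocyte gene Actc1, the globin gene Hba-a1 and the erythroid factor gene Gata1 were at 0 counts in all 6 libraries, Myh6, Cdh1 and Sox10 held at most 6 counts over a group, and the epithelial and mesothelial list had 0 higher (1 without Erg replicate 2) and 4 lower of 7 tested. Of 8 tested Schwann and neural genes, 2 were higher and 2 lower, of 6 cardiomyocyte genes 1 and 1, and of 4 blood genes 1 and 1. The Schwann and neural count higher and both cardiomyocyte counts changed by 1 when some single libraries were left out, while the other three counts held. Sox17 is also a factor of endoderm, and 16 of 18 endoderm genes had too few counts to test. Of the 2 tested, 1 was higher and 1 lower in SEG.

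Outside these lists, the largest gains and losses by the naming rule were near on-off differences. S100g, a calcium-binding protein gene, was at 67.7, 48.5 and 63.5 CPM in SEG with 1 count over the 3 Erg libraries, a ratio of 6231 (95% counting interval 773 to 170000). Magix stood at 88.0, 86.8 and 87.8 CPM in SEG against 3 counts over the Erg libraries (ratio 3034, interval 727 to 10300), and Sphkap, an anchoring protein gene, at 62.2, 53.2 and 65.4 CPM, also against 3 counts (ratio 1430, interval 499 to 7080). Magix and Sphkap were also high in Sox17-only cells, at 59.3 ± 6.81 and 78.2 ± 17.2 CPM. Tspan13, a tetraspanin gene, was at 78.1, 67.6 and 73.6 CPM in SEG and 0.282, 0.146 and 0.202 CPM in Erg (log2 change 8.44, SE 0.20). The peroxidase gene Lpo (log2 change 8.77), the transcriptional repressor gene Prdm1 (log2 change 8.08) and Ccdc88c (log2 change 8.03) were higher, and Tmprss5, Cttnbp2 and Tc2n went from 2 or 3 counts over the Erg libraries to means of 15.1, 14.9 and 10.7 CPM in SEG.

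Among the losses, Ggt5, a gamma-glutamyl transferase gene, was at 0.818, 0.453 and 0.710 CPM in SEG and 392, 392 and 398 CPM in Erg (log2 change -9.24, SE 0.24, adjusted p = 1.27e-16). Erg alone stood high, since the control was at 5.85 ± 0.198 CPM. Lrg1, a secreted glycoprotein gene, held 2 counts over the SEG libraries and 84.1, 88.1 and 84.4 CPM in Erg, which was 3417-fold higher (interval 860 to 25700). Lrrc4b (2 counts over the SEG libraries, 115 ± 6.37 CPM in Erg) and the transmembrane collagen gene Col13a1 (1 count, 51.2 ± 1.12 CPM) showed the same gap. Lyzl4 and Tmem132b held 0 counts over the SEG libraries and were at least 491-fold and 322-fold higher in Erg. Wnt9b, Chrdl2, Doc2b, Calcb and Cyp1a1 held 1 or 2 counts over the SEG libraries against Erg means of 30.7, 22.9, 25.8, 10.8 and 14.8 CPM. The peptide receptor gene Vipr1 (log2 change -9.56), the acetylcholinesterase gene Ache (log2 change -9.07), Pianp (log2 change -8.85) and Stac2 (log2 change -8.14) were also lower.

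The same contrast was then made at day 7, where SEG and Erg differed in 7320 genes (49.4%), 3652 (24.7%) higher and 3668 (24.8%) lower. Of the genes higher at day 3, 2579 were also higher at day 7, which is 67.7% of the day 3 calls and 70.6% of those at day 7, and 2590 lower genes were shared (69.2% and 70.6%). Opposite calls were made for 95 (2.5%) and 116 (3.1%). The change of the SEG against Erg difference from day 3 to day 7 was tested itself: 1354 genes (9.15%) had a more positive and 1240 (8.38%) a more negative difference at day 7. The positive ones were 52.2% of those called, or 25.1% with total count scaling. Of 34 endothelial genes, 12 had a more positive and 3 a more negative difference at day 7, and 19 did not pass. Among those more positive, Cdh5 was at 901 ± 152 CPM in SEG and 4.16 ± 0.515 CPM in Erg at day 7 (SD, n = 3), its log2 difference going from 5.86 to 7.76 (change 1.90, adjusted p = 6.79e-04). The Dll4 difference went from 7.00 to 10.23 (change 3.23, adjusted p = 1.71e-04) and that of Pecam1 from 4.76 to 6.58 (change 1.82). Vwf, which had not passed at day 3, was at 17.4, 19.2 and 37.2 CPM in SEG and 1.11, 0.880 and 1.16 CPM in Erg at day 7 (log2 difference 4.53, change 5.12, adjusted p = 1.89e-07). The Flt1 difference shrank from -2.98 to -0.35 (change 2.62, adjusted p = 8.75e-06).

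The gain of cell division genes was smaller at day 7 by that test. Of 30 genes, 25 had a more negative difference at day 7 and 0 a more positive one, and at day 7 itself 2 were higher and 6 lower. Mki67 was at 19.8, 22.4 and 24.6 CPM in SEG and 18.2, 22.9 and 14.5 CPM in Erg at day 7 (change of the log2 difference -0.94, adjusted p = 0.0157, but -0.76 and 0.0553 without Erg day 7 replicate 2), and the Ccna2 difference went from 1.33 to 0.16 (change -1.17, adjusted p = 1.42e-05). For Cdkn1a the difference went from -0.98 to -0.47 (change 0.52, adjusted p = 0.00373). Col1a1 went from 0.20 to 1.69 (change 1.49, adjusted p = 1.39e-06), at 10330, 10800 and 10880 CPM in SEG and 3175, 3556 and 3210 CPM in Erg, and 10 of 22 fibrillar collagen genes had a more positive difference at day 7. One day 7 library of SEG stood apart, with 5.13% of counts in ribosomal protein genes. Without it and an outlying Sox17 library at day 7, the counts of changed differences were 3373 and 3117.

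Sox17 against control at day 3 shares no library with SEG against Erg and also sets cells with Sox17 against cells without it. That comparison called 5987 genes (40.4%), 3082 (20.8%) higher and 2905 (19.6%) lower. The higher ones were 51.5% of those called, or 66.2% with total count scaling. Of the 3809 genes higher in SEG than in Erg, 1585 (41.6%) were also higher in Sox17 than in control, which is 51.4% of the Sox17 calls, and 381 (10%) were lower there. Of the 3742 lower genes, 1595 (42.6%, and 54.9% of the Sox17 calls) were lower and 446 (11.9%) higher. Across 14804 genes, which are not independent replicates, the log2 changes correlated with r = 0.412 and rho = 0.387. Efnb2 (log2 change 3.93 against Erg and 3.64 against control), Thbd (log2 change 2.91 and 3.06) and, downward, Dcn (log2 change -2.73 and -2.66) had values close to each other in both. Osr1 rose in both, by 4.81 and 4.22.

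**Figure D5:**
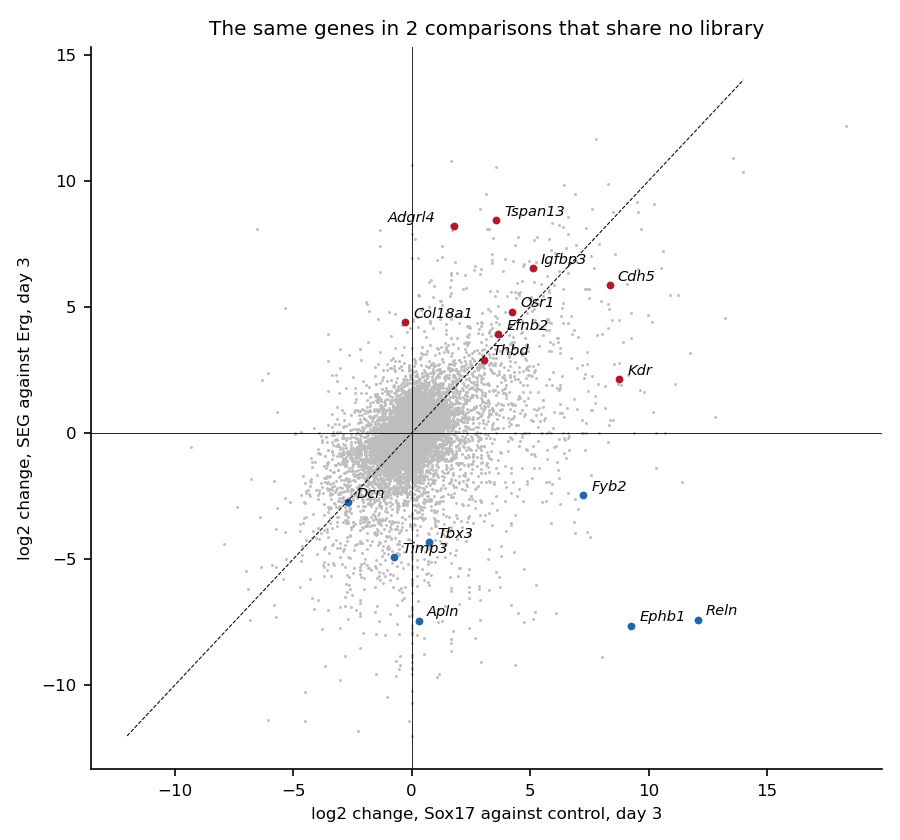
Log2 change in SEG against Erg (vertical axis) against log2 change in Sox17 against control (horizontal axis), both at day 3, for the 14804 genes tested; the dashed line marks equal values, red names were higher and blue names lower in SEG. Efnb2, Thbd and Dcn lie near the line, Adgrl4 and Col18a1 far above it, and Reln and Ephb1 at the lower right, high in Sox17 and low in SEG.

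The test of the difference between both comparisons called 5326 genes (36.0%), 2696 (18.2%) more positive and 2630 (17.8%) more negative in SEG against Erg. Adgrl4, an adhesion receptor of endothelium, was more positive by 6.38 (SE 1.21, adjusted p = 2.98e-04), going from 0.282, 0.0488 and 0.202 CPM in Erg to 49.5, 52.7 and 57.9 CPM in SEG. In Sox17-only cells it was at 0.556 ± 0.0893 CPM. Ccdc88c (6.34), Dll4 (5.70), Cd93 (5.41) and Scin (5.23), an actin-severing protein gene, were the other large positive differences. The Dll4 value was 4.47 (adjusted p = 0.202) without control replicate 2, and that of Ccdc88c was 3.57 (adjusted p = 0.304) without control replicate 3. For Col18a1 the excess was 4.68 (adjusted p = 2.01e-16). Kdr was more negative by this test, since it gained 8.75 in Sox17 against control and 2.14 in SEG against Erg (difference -6.61, adjusted p = 1.07e-09). Of the cell cycle genes, 24 of 30 were more positive in SEG against Erg and 1 more negative. Other lists leaned the same way, with 17 and 0 of 25 interferon response genes and 15 and 0 of 21 sterol and fatty acid synthesis genes. Fibroblast genes had 19 and 4 of 30, whereas basement membrane genes leaned the other way, with 2 and 9 of 25. The most negative genes were Reln, Ephb1, Calcb, Ache and Add2, which at day 3 were at means of 16.9, 3.68, 10.8, 39.7 and 14.3 CPM in Erg and of 0.0921, 0.0126, 0.0126, 0.0715 and 0.101 CPM in SEG. Their control level was at or near 0, so the fitted differences depend on the small count added before taking logs.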

How the data were processed

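RNA was sequenced from 24 libraries of mouse heart fibroblasts, per the labels' protocols after extraction with an RNeasy kit and messenger RNA library preparation by Novogene. The authors deposited whole-number counts per gene for 35727 Ensembl identifiers, of which 305 had no symbol. Salmon, DESeq2 and the build mm10 are named in the submitters' processing notes (versions, roles, strand setting and rounding: not given in the sources used here). Genes that share sequence with close relatives are uncertain. Groups were taken from the library titles.

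Counts were fitted in R 4.3.3 with edgeR 4.0.16: 14804 genes passed filterByExpr (minimum count 10), libraries were scaled by TMM, and the quasi-likelihood fit used all 24 libraries, with a mean for each of the 8 groups. Tests were 2-sided with Benjamini-Hochberg adjustment over all genes and a call at 0.05. Log2 changes have a prior count of 0.125, and their standard error is the log2 change divided by the square root of the F statistic. The same fit tested the change of the SEG against Erg difference between the days, and its excess over Sox17 against control. A group at 0 counts was given a floor of 3 counts over its 3 libraries, and intervals are 95% counting intervals, which cover counting error only.

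The comparison, the gene lists and the tests were chosen with earlier results of these data known. Named genes were Sox17 and Erg; from the called genes whose higher group reached 10 CPM and whose libraries did not overlap, the top 15 in each direction; up to 4 called members of each list that reached 5 CPM; the top 5 in each direction in both tests of a difference (10 CPM in any group, no overlap between the first 2 groups); and fixed markers. A further 49 genes were named for their role after their values were seen, as were list members given without library values. A few chosen genes are not reported here. The fit was tested on counts simulated for this comparison, which recovered 82 of 100 genes set to 2-fold and 93 of 100 set to 4-fold, at a cost of 12 false calls in 14366 genes tested. Apart from the genes set to change, the simulated libraries shared the same mean profile and held no outlying library. In the data 51.0% of genes were called, so the simulation did not test the error rate or the scaling under such a setting. Replicate numbers did not pair the libraries: same-numbered SEG and Erg libraries deviated together with correlations of 0.019, -0.032 and 0.009. Alternatives were RLE and total count scaling, no filter, a replicate block, a test beyond 1.5-fold, only the groups compared, both outlying day 7 libraries left out, DESeq2 1.42.0 and leaving out each library.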

Additional observations from a re-analysis of the deposited data

Results flagged for a closer look

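The tests of a difference between comparisons picked out the results that follow, with values and no explanation. The change of the SEG against Erg difference from day 3 to day 7 was more positive in 1354 genes and more negative in 1240. Among endothelial and other marker genes the change was positive for Cdh5 (1.90), Pecam1 (1.82), Tie1 (2.14), Flt1 (2.62), Vwf (5.12), Dll4 (3.23), Hey1 (2.71), Sox18 (2.09), Lyve1 (1.76), Col1a1 (1.49) and Cdkn1a (0.52) on the log2 scale. It was negative for Ccna2 (-1.17), Mki67 (-0.94), Fli1 (-0.61) and Pdgfra (-1.80). Beside Vwf, the largest positive changes by the naming rule were those of Gpr21 (4.79), Sema3g (4.52), Dusp15 (4.44) and Timp4 (4.37), of which Dusp15 and Timp4 had been lower in SEG at day 3. The largest negative changes fitted were those of Fbxo2 (-5.32), Lmod3 (-5.12), Il33 (-4.61), Fyb2 (-4.57) and Plet1 (-4.54). Lmod3 and Plet1 held 0 counts over the SEG libraries at day 7, and Gpr21 was under the floor of 3 counts in Erg at that day, so the sizes fitted for these depend on the prior count and are no bounds. Fbxo2 had been at 0.409, 0.226 and 0.523 CPM in SEG and 0.734, 1.27 and 0.837 CPM in Erg at day 3 and was at 0.287, 0.246 and 0.204 and 24.3, 22.2 and 26.0 CPM at day 7. The calls for Fli1, Gpr21, Lmod3 and Mki67 were lost when some single libraries were left out (Fli1 0.0585 to 0.0904, Gpr21 0.0537 to 0.337, Lmod3 0.0525 to 0.173, Mki67 0.0553, as adjusted p).

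The SEG against Erg difference at day 3 exceeded the Sox17 against control difference in 2696 genes and fell short of it in 2630. The largest excesses by the naming rule were those of Adgrl4 (6.38), Ccdc88c (6.34), Dll4 (5.70), Cd93 (5.41) and Scin (5.23). The largest shortfalls were fitted for Reln (-19.45), Ephb1 (-16.9), Calcb (-13.54), Ache (-12) and Add2 (-11.64), whose size depends on the prior count because a group was at or near 0 counts. Without control replicate 2 the Dll4 value was 4.47 (adjusted p = 0.202), and without control replicate 3 that of Ccdc88c was 3.57 (adjusted p = 0.304).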

How the results depend on the processing

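The main limits are the 3 libraries a group, of unknown independence, the gap in Erg mRNA between the groups compared, and the absence of an outside standard of RNA amount. Leaving out each library in turn gave 3288 to 3498 genes higher and 3319 to 3467 lower in SEG than in Erg at day 3, 3195 to 3688 and 3283 to 3711 at day 7, 1080 to 1428 and 972 to 1243 for the change between the days, 2663 to 2806 and 2546 to 2585 for Sox17 against control, and 2303 to 2483 and 2362 to 2430 for the difference from the Sox17 effect. With the replicate number as a block, 3816 genes were higher and 3720 lower at day 3; the block moved no count by over 1.5 times. A test beyond 1.5-fold left 1678 higher and 1917 lower at day 3, 1595 and 1955 at day 7, 354 and 309 for the change between the days, 1470 and 1393 for Sox17 against control, and 1172 and 1362 beyond the Sox17 effect. Total count scaling moved the median log2 change of all genes at day 3 from 0.02 to 0.14 and the share of higher genes among those called from 50.4% to 60.3%, and it gave 798 and 2384 genes for the change between the days. Leaving out both outlying day 7 libraries gave 3373 and 3117 for that change and 4201 and 4032 beyond the Sox17 effect, and fitting only the groups compared gave 4122 and 4143 for the latter; the cause was not tested.

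Of 203 genes chosen for naming, 191 were called at day 3, and 170 of these kept their direction and call under every alternative run. The 21 that lost the call all did so in the test beyond 1.5-fold, which asks a stricter question. They included Adgre1, Csf1r, Fdft1, Fli1, Gapdh, Gata6, Gbp3, Hes1, Isg15, Itgb2, Map2, Mcm3, Mrc1, Oas1a, Pdgfra, Robo4, Scd1, Scd2, Thbs1 and Tnnt2. Of these, Adgre1, Gata6, Gbp3, Isg15, Map2, Oas1a, Robo4, Scd2 and Tnnt2 also lost the call under another alternative. Among genes that had not passed, Ptprc turned from -0.10 to 0.013 with total count scaling and ran from -0.272 to 0.04 as single libraries were left out, Gata4 from -0.10 to 0.019 with total count scaling, and Tagln ran from -0.125 without SEG replicate 2 to 0.129 (main value 0.04). Of the 24 genes named for a change between the days, 19 held under every alternative and Cdkn1a, Fli1, Gpr21, Lmod3 and Mki67 did not, and of 10 named beyond the Sox17 effect 8 held and Ccdc88c and Dll4 did not. Cdkn1a lost its call only in the test beyond 1.5-fold. Fitting only the groups compared raised the members higher at day 3 from 4 to 8 for fibroblast genes, 3 to 7 for fibrillar collagens, 4 to 8 for matrix proteases and 8 to 13 for sterol genes, and those lower from 5 to 8 for endothelial transcription factors and 2 to 4 for coagulation genes. Medians of the endothelial transcription factor, interferon and blood lists changed sign under at least 1 alternative.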
